A study of Mus musculus with 31 samples.

Results

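The genes described here encode 10 heat shock proteins of the cytosol and the mitochondrion: Hsph1, Hspa1a, Hspa1b, Hspa8, Dnaja1, Dnajb1, Hsp90aa1, Hsp90ab1, Hspd1 and Hspe1. They are 10 of the 45706 gene identifiers in the count tables, matched by symbol, and all 10 were found. The list was chosen from values measured in these same libraries, with the changes after β-glucan and between cell types already known, so the counts and fold changes of the 10 genes are given as a description. The libraries were made from sorted bone marrow cells of C57BL/6 mice aged 10 weeks that had an intraperitoneal injection of either phosphate-buffered saline (PBS) or 1 mg of β-glucan, a glucose polymer of fungal cell walls. Long-term hematopoietic stem cells (HSC) were taken at day 7 (4 PBS and 3 β-glucan libraries) and at day 28 (4 and 4), and multipotent progenitors (MPP) at day 28 (4 and 4). In the remaining set of HSC (4 and 4), both the PBS and the β-glucan mice were also given 150 mg/kg of 5-fluorouracil (5-FU), a drug that kills dividing cells, on day 7, and the cells were collected 14 days after that. The labels do not say whether replicates came from separate mice or from pools, so the errors measure the spread between these libraries, which may be technical.

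Heat shock proteins are molecular chaperones that bind unfolded stretches of other proteins. HSP70 proteins (Hspa8 constitutive; Hspa1a and Hspa1b stress-inducible) bind and release their clients in a cycle that J-domain proteins such as Dnaja1 and Dnajb1 start by stimulating ATP hydrolysis, and that nucleotide exchange factors, among them the HSP110 protein Hsph1, complete. HSP90 proteins (Hsp90aa1 inducible, Hsp90ab1 constitutive) act on clients that are nearly folded, such as kinases and steroid receptors. Hspd1 (HSP60) and Hspe1 (HSP10) form the folding chamber of the mitochondrial matrix and its lid. In stressed cells the transcription factor Hsf1 binds heat shock elements, inverted repeats of GAA, in the promoters of many of these genes, and handling of a tissue can induce the same genes together with immediate early genes.

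Levels are CPM, the counts of a gene scaled to library sizes adjusted by TMM, which allows for a few abundant genes taking different shares of the libraries, and a level per kilobase of exon (RPKM) is the CPM divided by the gene's exonic length, used wherever genes are set against each other. That length takes in all annotated exons of a gene, from 1474 bases (Hspe1) to 8629 bases (Dnaja1). The order of the genes per kilobase and the ratios between them depend on it. Library totals ran from 19331663 to 39485556 counts. A gene is called when its adjusted p is below 0.05 in edgeR's quasi-likelihood F test, with Benjamini-Hochberg adjustment over every gene of the table that passed the filter on low counts, and a value in parentheses after a gene, or introduced by "at", is its log2 fold change ± the standard error of the fit. Of the 10 genes, 8 passed that filter in every comparison, Hspa1b passed only in the comparisons that hold the 5-FU libraries, and Hspa1a passed in none. The cell labels of the day 28 libraries were checked by markers. Those of the day 7 and 5-FU libraries could not be checked in this way, as these sets hold HSC only. All 3 MPP markers (Cd34, Cd48 and Flt3) were called higher in MPP than in HSC of PBS mice. Of 10 HSC markers 5 were called lower there, among them Slamf1, with Ly6a, which encodes Sca-1, higher. In β-glucan mice all 3 MPP markers were called higher too, and of the 10 HSC markers 5 were lower and 2 higher. The summed HSC markers overlapped between HSC (435.7 to 705.1 CPM) and MPP (394.5 to 478.7 CPM) of PBS mice. They also overlapped in β-glucan mice, at 407.1 to 452.5 CPM in HSC and 385.6 to 447.1 CPM in MPP. 1 library titled as MPP of a PBS mouse carries a tag that says HSC, and its title was followed. The summed MPP markers were 446.5 to 532.8 CPM in the libraries titled as MPP of PBS mice, the tagged library included. In HSC of PBS mice at day 28 they were 229.1 to 245.5 CPM. Markers of mature blood cells were present in every library: the summed level of 8 erythroid markers ran from 19770 to 200200 CPM and that of 8 neutrophil markers from 44210 to 200500 CPM. In such bulk RNA, fewer cells of a type and less RNA per cell cannot be told apart.

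The promoters of these genes are shown first, with exact matches to the heat shock element in windows around the gene starts. RefSeq windows (GRCm38.p6, from 250 bases before to 50 after a transcription start) were found for 7 of the 10 genes, in 12 windows. Hspa8, Hsp90aa1 and Hsp90ab1 had none. Both strands were searched for GAANNTTCNNGAA, an element of 3 inverted units, and for GAANNTTC, 2 of the units, which lies inside the longer motif. The 3-unit element was in windows of 3 genes, Hsph1, Hspd1 and Hspe1, against 0.662% of all 27025 genes with a window. The 2-unit element was in 6 of the 7 genes, all but Dnajb1, against 9.04% of all genes. A match is a description of the letters in the window and not a measured binding site. Elements with other letters or outside the window are missed, so a gene without a match may still have an element. The stretches that hold these matches follow, 5′ to 3′ on the gene's strand, with the match in capitals.
Hspe1, the 120 bases before its start, chr1:55088028-55088147, plus strand: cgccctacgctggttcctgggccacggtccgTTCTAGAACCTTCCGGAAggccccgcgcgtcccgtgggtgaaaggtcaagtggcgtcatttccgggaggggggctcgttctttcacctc
Hsph1, bases 9 to 38 after the second of its 2 starts, chr5:149636278-149636307, minus strand: ctgcagaTTCTGGAAAGTTCtcctcagtag
Dnaja1, bases -140 to -111 of the first of its 3 starts, chr4:40722328-40722357, plus strand: agaaaaaaagcctctaGAAAATTCtacgag
Hspa1a, the 180 bases before its start, chr17:34972157-34972336, minus strand: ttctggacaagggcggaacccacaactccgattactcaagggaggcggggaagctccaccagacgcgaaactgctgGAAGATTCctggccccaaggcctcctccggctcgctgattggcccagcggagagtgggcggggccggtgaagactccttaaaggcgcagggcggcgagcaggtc
Hspa1b, the 180 bases before its start, chr17:34959239-34959418, minus strand: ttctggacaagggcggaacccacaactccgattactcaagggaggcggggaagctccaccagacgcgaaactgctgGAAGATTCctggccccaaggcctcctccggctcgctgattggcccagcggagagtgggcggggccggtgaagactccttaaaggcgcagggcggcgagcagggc
In Hspe1 the capitals run from base -89 to base -72 relative to the start and hold 2 overlapping 3-unit matches. Hspd1 and Hspe1 lie on opposite strands, and the second of 2 Hspd1 starts lies 216 bases from the Hspe1 start, so that 285 bases of these windows are the same DNA. The same run of capitals lies at -144 to -127 of that second Hspd1 start, and the window of the first Hspd1 start holds no match. Hspa1a and Hspa1b lie on the same strand with starts 12918 bases apart, and their windows differ at 4 of 300 bases, 1 of them within the printed stretches. Both carry the 2-unit match at -104 to -97.

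Per kilobase of exon, Hsp90ab1, Hspa8 and Hspd1 were the 3 highest members in every group, and the stress-inducible HSP70 genes the lowest. Hsp90ab1 (ENSMUSG00000023944, chromosome 17, 45567775 to 45573271 in mm10) was the highest of the 10 in all 8 groups, with a mean from 335.6 RPKM in HSC of PBS mice after 5-FU to 847.1 RPKM in MPP of β-glucan mice. Hspa8 (ENSMUSG00000015656, chromosome 9, 40800984 to 40805200) followed, between 154.4 and 240.7 RPKM, then Hspd1 (ENSMUSG00000025980, chromosome 1, 55077835 to 55088243) between 71.73 and 195 RPKM, and Hspe1 (ENSMUSG00000073676, chromosome 1, 55088132 to 55091307) between 50.11 and 88.47 RPKM. These 4 kept that order in each group, without overlap from one to the next of the 4. Dnajb1, Dnaja1 and Hsp90aa1 came next in an order that changed with the group: in HSC of PBS mice at day 28 the ranges of Hspe1 and Dnajb1, of Dnajb1 and Hsp90aa1, and of Hsp90aa1 and Dnaja1 (43.83, 35.34 and 33.3 RPKM on average for the last 3 genes) each overlapped. The order from the fourth place on depends on the pseudogenes described below: with their counts added, an alternative chosen after seeing the data, Hsp90aa1 moved from 35.34 to 142.8 RPKM in HSC of PBS mice at day 28, above Hspe1 at 61.54 RPKM, and was the fourth in all day 28 and 5-FU groups. Hsp90ab1, Hspa8 and Hspd1 kept their places by mean in all 8 groups. Hsph1 was the eighth in every group, from 2.724 to 13.31 RPKM. The 2 stress-inducible HSP70 genes were last.

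**Figure D1:**
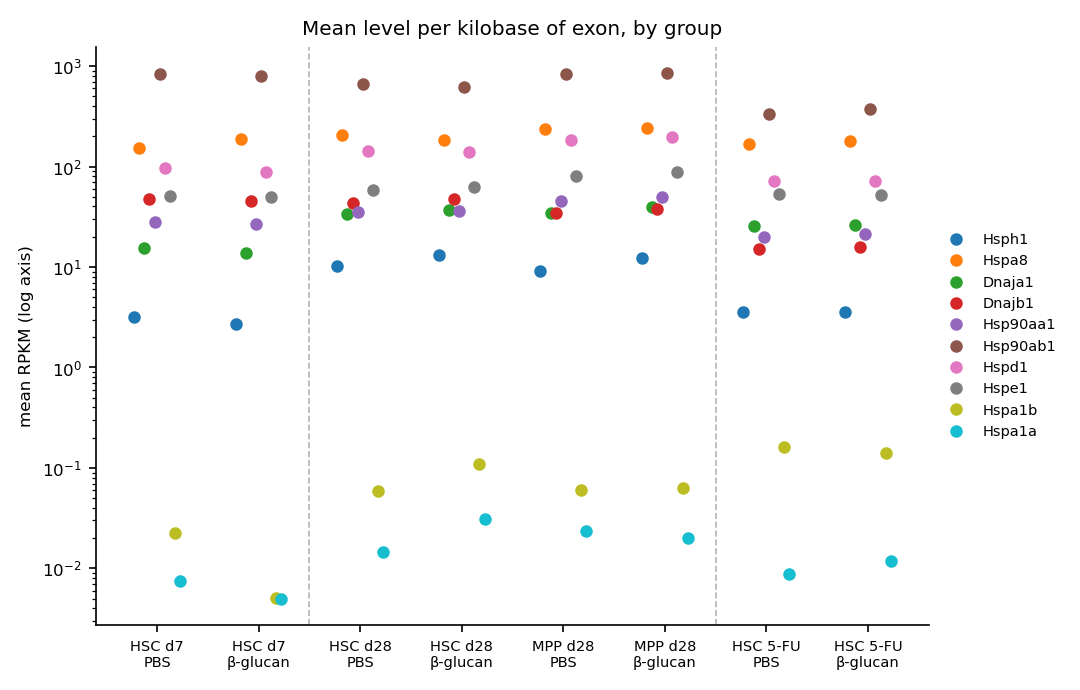
Mean RPKM of the 10 genes (log axis) in each of the 8 groups, with dashed lines between the 3 count tables. Hsp90ab1 is highest and Hspa1a lowest in each group. Hsph1 stands at 2.724 to 3.589 RPKM in the day 7 and 5-FU tables and at 9.052 to 13.31 RPKM in the day 28 table. Table, day and 5-FU treatment cannot be told apart, so nothing is read from levels that differ between tables.

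Hspa1a (ENSMUSG00000091971, chromosome 17, 34969190 to 34972156) and Hspa1b (ENSMUSG00000090877, chromosome 17, 34956436 to 34959238), the inducible HSP70 genes, were hardly counted in any library. Hspa1a had 0 to 4 counts per library, with a median of 1, and Hspa1b had 0 to 21, with a median of 6. Over the 31 libraries the totals were 44 and 206 counts. Hspa1a had 0 counts in 9 libraries, which allows a level of up to 0.0953 to 0.155 CPM depending on the library total, for a limit of 3 counts that covers counting error only. Of the 50-base stretches of Hspa1a, 58.8% are also found in Hspa1b, so reads may have been discarded or split between the copies. Moreover, 19% of the exonic bases of Hspa1a lie under exons of Gm20481 on the other strand, and the libraries do not mark strand. The sum of both copies passed the filter in HSC at day 28, where it was 0.90 ± 0.34 in β-glucan against PBS mice. It also passed after 5-FU (-0.15 ± 0.39) and in MPP against HSC of β-glucan mice (-0.73 ± 0.32). In the differences of β-glucan effects it was -0.89 ± 0.54 for MPP minus HSC and 2.23 ± 1.11 for day 28 minus day 7. For 5-FU minus day 28 it was -1.07 ± 0.52. The sum was called in none of these, and all rest on few counts.

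Levels in different tables cannot be compared for genes with processed pseudogenes, because for several of them the share of counts on those copies differed between tables. Pseudogenes were taken as annotated copies that hold at least 1% of a gene's 50-base stretches. On the pseudogenes of Hspa8, the day 7 table held 1.92% as many counts as on the gene itself, and the day 28 and 5-FU tables held 45.6% and 45.5%. For Hsp90aa1 (ENSMUSG00000021270, chromosome 12, 110690605 to 110702728) the values were 23.9%, 302% and 289%, so that in the later tables the pseudogenes had more counts than the gene. Hspd1 had 20.3%, 29.4% and 27.3%. Dnaja1 (ENSMUSG00000028410, chromosome 4, 40722150 to 40737149) went the other way, with 47.7%, 45.1% and 33.3%. Hsph1 (ENSMUSG00000029657, chromosome 5, 149614287 to 149636376) shares none of its 50-base stretches with another gene, and Dnajb1 (ENSMUSG00000005483, chromosome 8, 83608175 to 83611902) shares 0.412%. For all genes, the table, the day and the 5-FU treatment cannot be told apart, so levels are compared only within a table. The differences of β-glucan effects between days, and between 5-FU and day 28, are the comparisons that join libraries of separate tables. With pseudogene counts added to each member, an alternative chosen after seeing the data, the number of members called was the same in all 9 comparisons.

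**Figure D2:**
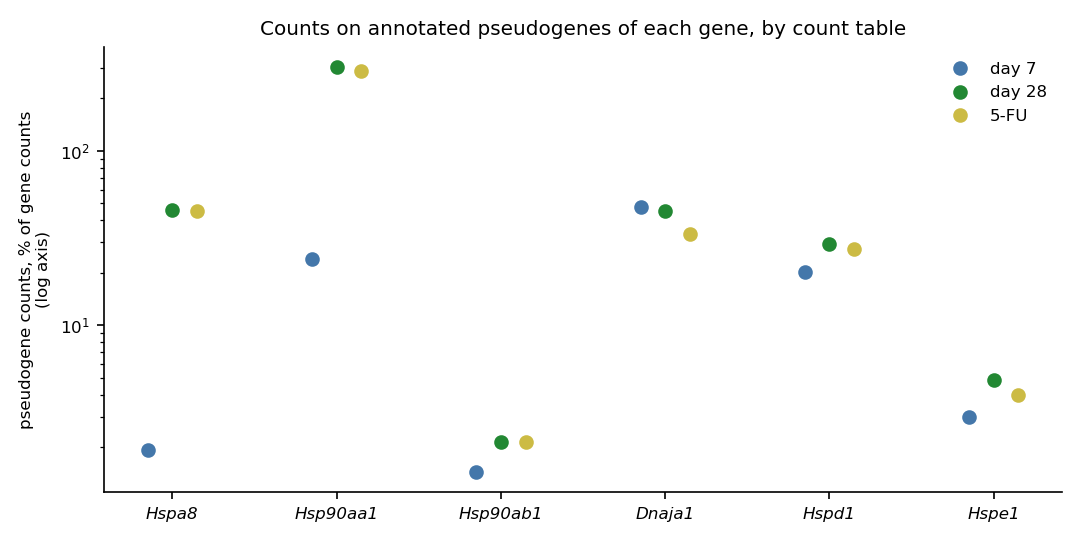
Counts on annotated pseudogenes as a percent of the counts on the gene (log axis), for the 6 members with such pseudogenes and each of the 3 count tables (points). Hspa8 lies at 1.92% in the day 7 table and at 45.6% and 45.5% in the other tables, while Hsp90ab1 lies between 1.44% and 2.14% in all 3.

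In MPP at day 28, Hsph1, the HSP110 exchange factor, was higher in β-glucan mice than in PBS mice, and no other member was called. The PBS libraries stood at 65.97, 65.44, 65.46 and 66.23 CPM of Hsph1, and the β-glucan libraries at 86.35, 91.21, 89.02 and 92.67 CPM. The 2 groups were far apart and the PBS libraries nearly equal, with a coefficient of variation of 0.595%. Those PBS libraries held 1979 to 2426 counts of Hsph1, for which counting error alone is larger than that. Uniform expression is therefore not read from their closeness. Scaled to the library totals alone, the PBS libraries ran from 63.2 to 67.93 CPM, with a coefficient of variation of 3.52%, and the β-glucan libraries from 90.06 to 102.5 CPM, still apart. The difference was 0.44 ± 0.04, a fold of 1.36, and Hsph1 ranked sixth by p among the genes tested (rank 6 of 15828). It was called, and it was called in all 18 alternatives too, at 0.42 to 0.47. Hsph1 was the only one of the 8 tested members called, beside 4.63% of all genes called in that comparison, and 5 of the 8 had an unadjusted p under 0.05, beside 19.3% of all genes. None of the 50-base stretches of Hsph1 is shared with another gene.

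The 7 other tested members in MPP all had positive values, from 0.01 to 0.17, and none was called. Among HSP70 and its J-domain partners, Hspa8 was at 0.03 ± 0.05 and Dnaja1 at 0.17 ± 0.06. Dnajb1 was at 0.13 ± 0.05, from 76.57 to 81.11 CPM in PBS and from 81.91 to 90.42 CPM in β-glucan libraries, without overlap. Of the HSP90 genes, Hsp90aa1 was at 0.12 ± 0.05 and Hsp90ab1 at 0.01 ± 0.05. Of the mitochondrial pair, Hspd1 was at 0.10 ± 0.04 without overlap, from 459.9 to 495.4 and from 496.1 to 531 CPM, and Hspe1 at 0.14 ± 0.06. Here and in the comparisons below, the share of all genes without overlap was not counted, so nothing is read from such gaps. The median of the 8 was 0.13, beside 0 for all genes. Together the 10 genes held 0.472 ± 0.0247% of counts (SD, n = 4) in PBS and 0.519 ± 0.0158% (n = 4) in β-glucan MPP, while their TMM-scaled CPM summed to 4711 ± 108 and 4896 ± 148. The 8 erythroid markers summed to 144400 to 181900 CPM in these PBS libraries and to 109200 to 156900 CPM in the β-glucan libraries, and their part in the unscaled share was not tested.

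Other genes of the chaperone system moved in the same MPP comparison. Hsf1, the heat shock factor, rose (0.26 ± 0.07), the only call of 5 tested heat shock factors and small heat shock proteins. Hspa9, the mitochondrial HSP70, rose (0.79 ± 0.13), and so did Stub1, a ubiquitin ligase that binds HSP70 and HSP90 (0.90 ± 0.17). Of 13 HSP90 co-chaperones 3 rose and none fell: Cacybp (0.31 ± 0.05), the client-cycle protein p23 encoded by Ptges3 (0.24 ± 0.06) and the immunophilin Fkbp4 (0.23 ± 0.06). Of 10 other J-domain genes 1 fell, Dnajc7 (-0.17 ± 0.05). None of the 14 genes of the TRiC chaperonin and prefoldin was called, with Cct6a at 0.20 ± 0.05, Cct4 at 0.18 ± 0.05 and Pfdn5 at -0.12 ± 0.06. In the endoplasmic reticulum 6 of 12 chaperone genes rose, with Manf (0.43 ± 0.04), Hspa5 (0.38 ± 0.05) and Sdf2l1 (1.42 ± 0.20) at the smallest p. Of 12 tested immediate early and dissociation stress genes, 3 rose, Fos (0.91 ± 0.07), Ier2 (1.48 ± 0.29) and Junb (1.21 ± 0.27), and Btg2 fell (-0.26 ± 0.06). Summed over that list, the level was 410.1 to 452.6 CPM in PBS and 402 to 434.7 CPM in β-glucan libraries, with no gene at 0 in every library. Markers of other cells also moved, with 5 of 8 neutrophil, 5 of 7 B cell and 4 of 5 T and NK cell markers lower. The part of these cells and of handling in the Hsph1 difference was not tested.

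**Figure D3:**
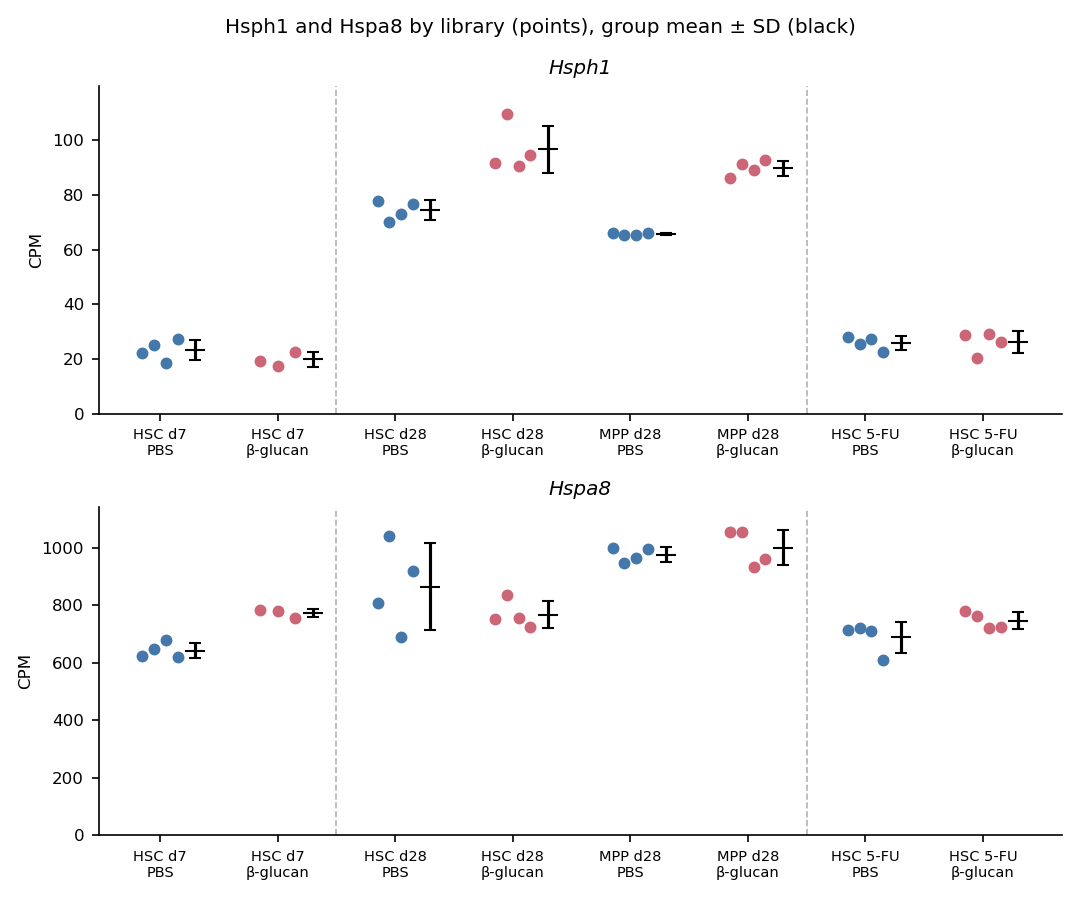
CPM of Hsph1 (top) and Hspa8 (bottom) in each library (points), with mean ± SD per group in black, blue for PBS and red for β-glucan, and dashed lines between count tables. Hsph1 does not overlap between PBS and β-glucan mice in HSC and MPP at day 28, and Hspa8 does not overlap in HSC at day 7. The share of all genes without overlap was not counted.

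HSC of the same day showed a Hsph1 difference of similar size that was not called. It stood at 77.92, 70.28, 72.98 and 76.9 CPM in PBS and at 91.74, 109.6, 90.7 and 94.73 CPM in β-glucan libraries. All 4 β-glucan libraries lay above all 4 PBS libraries, with the second β-glucan library the highest, but the share of all genes so separated was not counted. The value was 0.36 ± 0.08, rank 101 by p of 16025 genes, with an adjusted p of 0.106 in edgeR. None of the 8 tested members was called, beside 0.0374% of all genes, and 1 of the 8 had an unadjusted p under 0.05, beside 17% of all genes. DESeq2, limma voom and the fit of all 8 groups each called 1 member, Hsph1. They called 589, 598 and 525 genes in all, against 6 in the main fit. The range of the adjusted p of Hsph1 over all 19 alternatives was 0.00645 to 0.288, and its value stayed between 0.31 and 0.39.

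The rest of the family in HSC at day 28 lay between -0.18 and 0.14 in the main fit. Hspa8 was at -0.18 ± 0.12, with PBS libraries spread from 688.1 to 1042 CPM around β-glucan libraries of 725.2 to 834.7 CPM. Dnaja1 was at 0.14 ± 0.12 and Dnajb1 at 0.09 ± 0.10. Without PBS library 2 and β-glucan library 3, an alternative chosen after seeing the data, Dnaja1 was at 0.32 ± 0.07. It was called there (adjusted p of 0.0442 in edgeR), beside 669 genes called in all. The HSP90 genes were at 0.01 ± 0.10 (Hsp90aa1) and -0.09 ± 0.08 (Hsp90ab1), and the mitochondrial genes at -0.04 ± 0.07 (Hspd1) and 0.08 ± 0.08 (Hspe1). Their median with Hsph1 was 0.04, beside -0.02 for all genes. Hsf1 was at 0.24 ± 0.10 and Hsf2 at 0.43 ± 0.13, neither called. Of the 9 chaperone and stress lists, a single gene was called, the endoplasmic reticulum cofactor Sdf2l1 (1.08 ± 0.14). Fos (0.95 ± 0.17) and Ier2 (1.31 ± 0.28) were not called, and neither was any of the 33 markers of red cells, neutrophils, B cells, T and NK cells, and monocytes. Still, all 8 neutrophil, 7 B cell and 5 T and NK cell markers had negative values, with medians of -0.28, -0.24 and -0.43, and so had all 10 HSC markers (-0.41). The T and NK cell markers summed to 54.44 to 62.18 CPM in PBS and 42.65 to 45.16 CPM in β-glucan libraries, without overlap. The part of these cells in the Hsph1 values was not tested.

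**Figure D4:**
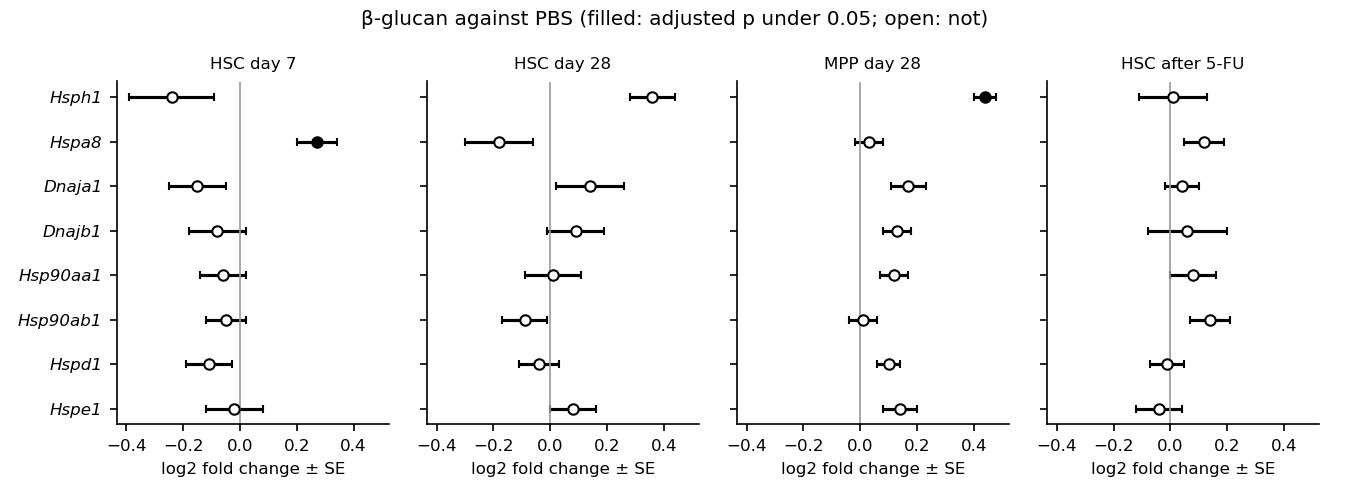
Log2 fold change ± standard error of the 8 tested members between β-glucan and PBS mice, in the 4 comparisons (panels), with filled points for an adjusted p under 0.05. Filled points are Hspa8 in HSC at day 7 (0.27) and Hsph1 in MPP at day 28 (0.44).

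At day 7 the member called in HSC was Hspa8, the constitutive HSP70 gene. Its PBS libraries stood at 621.4, 646.5, 678 and 620.8 CPM and its β-glucan libraries at 783.1, 778.5 and 755.8 CPM. The 3 β-glucan libraries lay above all 4 PBS libraries, and the share of all genes so separated was not counted. The difference was 0.27 ± 0.07, a fold of 1.2. It was the single call among the 8 tested members, beside 6.72% of all genes called, and nothing is read from 1 of 8 at that background. The call was lost (adjusted p of 0.0724 to 0.128 in edgeR) without PBS replicate 1, 2 or 4 or β-glucan replicate 1, 2 or 3, and kept without PBS replicate 3 (0.0434). The value stayed between 0.25 and 0.30.

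The 7 other tested members at day 7 had negative values and none was called. Hsph1 was at -0.24 ± 0.15, from 18.63 to 27.36 CPM in PBS and from 17.4 to 22.7 CPM in β-glucan libraries, which overlap. Dnaja1 was at -0.15 ± 0.10, Dnajb1 at -0.08 ± 0.10, Hsp90aa1 at -0.06 ± 0.08 and Hsp90ab1 at -0.05 ± 0.07. The mitochondrial genes were at -0.11 ± 0.08 (Hspd1) and -0.02 ± 0.10 (Hspe1). The median of the 8 was -0.07, beside -0.01 for all genes. Among the other chaperones, the HSP70-like gene Hspa13 rose (0.47 ± 0.12) and the J-domain gene Dnajb2 fell (-0.91 ± 0.11). In the endoplasmic reticulum 4 of 12 genes rose, Manf (0.35 ± 0.08), Sdf2l1 (0.61 ± 0.15), Pdia6 (0.29 ± 0.07) and Hspa5 (0.29 ± 0.08). Hsf1 was at 0.01 ± 0.15. No gene of the HSP90 co-chaperones, exchange factors, TRiC and prefoldin, or mitochondrial folding lists was called. Blood cell markers changed along with these values: all 8 erythroid markers fell, from 56930 to 72540 CPM summed in PBS and from 19770 to 24280 CPM in β-glucan libraries, 7 of 8 neutrophil markers rose, and 6 of 7 B cell markers fell. Of 13 immediate early genes 1 was called, Btg2 (-0.38 ± 0.07), and their sum spread from 1717 to 2595 and from 1070 to 2213 CPM. The part of these changes in the Hspa8 difference was not tested.

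After 5-FU no member was called. None of the 9 tested passed in edgeR, DESeq2 or limma voom, beside 0.0446% of all genes in edgeR, and 1 of the 9 had an unadjusted p under 0.05, beside 7.54% of all genes. Hsph1 stood at 28.13, 25.51, 27.26 and 22.47 CPM in PBS and at 28.81, 20.38, 29.03 and 26.09 CPM in β-glucan libraries (0.01 ± 0.12). Its groups overlap almost fully. Hspa8 was at 0.12 ± 0.07, and Hspa1b, which passed the filter here, at -0.19 ± 0.42. Dnaja1 was at 0.04 ± 0.06 and Dnajb1 at 0.06 ± 0.14. The HSP90 genes were at 0.08 ± 0.08 (Hsp90aa1) and 0.14 ± 0.07 (Hsp90ab1), the latter from 927.5 to 1079 CPM in PBS and from 1072 to 1164 CPM in β-glucan libraries. Hspd1 was at -0.01 ± 0.06 and Hspe1 at -0.04 ± 0.08. No gene of the 9 chaperone and stress lists was called.

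The β-glucan differences were then set against each other. Between day 28 and day 7 in HSC, Hsph1 differed by 0.57 ± 0.16 (the day 28 value minus the day 7 value) and was the only one of 8 tested members called, beside 4.82% of all genes. The call was lost when any of 12 of the 15 libraries was left out, with values from 0.49 to 0.60, and kept without day 7 PBS replicate 3, day 7 β-glucan replicate 3 or day 28 β-glucan replicate 3. Hspa8 was at -0.48 ± 0.15 and was not called (adjusted p of 0.0745 in edgeR). It was called by edgeR with CPM of at least 5 (0.0422), with all 8 groups in 1 fit (0.0196) and without day 28 PBS replicate 3 (-0.57, 0.0155), and by DESeq2 (0.0394) and limma voom (0.0297), within a range of 0.0155 to 0.177 over its alternatives. The other 6 members lay between -0.07 and 0.26. The days come from different tables. Between MPP and HSC at day 28, none of 8 tested members was called by edgeR, DESeq2 or limma voom, beside 0.00599% of all genes, and 0 of the 8 had an unadjusted p under 0.05, beside 6.19% of all genes. The Hsph1 difference between MPP and HSC was 0.07 ± 0.09. The call in MPP and its absence in HSC therefore do not show that Hsph1 responded differently in the 2 cell types. Between 5-FU and day 28 in HSC, none of 9 tested members was called by the same 3 tools, beside 0.106% of all genes, and 2 had an unadjusted p under 0.05, beside 11.3% of all genes. Hsph1 was at -0.37 ± 0.14, Hspa8 at 0.28 ± 0.14 and Hsp90ab1 at 0.22 ± 0.10. The day 28 HSC libraries enter all 3 of these differences.

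Between the cell types, HSP90 and the mitochondrial chaperonin were higher in MPP than in HSC, and the J-domain gene Dnajb1 was lower. In PBS mice 6 of 8 tested members were called, 4 higher and 2 lower, beside 21.7% of all genes, and in β-glucan mice 6 of 8, 5 higher and 1 lower, beside 35.6%. Since the members were chosen with this contrast known, no more is read from these shares. The median of the 8 was 0.25 in PBS and 0.41 in β-glucan mice, beside -0.02 and -0.01 for all genes.

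Among the HSP70 cycle genes, values differed in direction. Hspa8 was at 0.17 ± 0.11 in PBS mice, where HSC libraries from 688.1 to 1042 CPM overlapped MPP libraries from 944.9 to 999.1 CPM. It was called in β-glucan mice (0.39 ± 0.07), with HSC at 751.1, 834.7, 756.8 and 725.2 CPM and MPP at 1053, 1054, 933.9 and 960.4 CPM. Without HSC PBS replicate 2, the highest library, the PBS difference was 0.27 and was called (adjusted p of 0.0227 in edgeR). Dnajb1 fell in MPP of PBS mice (-0.35 ± 0.09), from 96.03, 117.8, 82.8 and 100.1 CPM in HSC to 77.12, 76.57, 78.65 and 81.11 CPM in MPP, and of β-glucan mice (-0.30 ± 0.06). The groups were separate in both, although the PBS call was lost without MPP PBS replicate 1, 2 or 3 (adjusted p of 0.0634, 0.0612 and 0.0528 in edgeR). Dnaja1, the other J-domain gene, was at 0.05 ± 0.10 and 0.09 ± 0.08, and was called in neither. Per kilobase, Dnajb1 stood at 1.32 ± 0.0434 times Dnaja1 in HSC and at 1 ± 0.0613 times in MPP of PBS mice (SD, n = 4 each), and with pseudogene counts added at 0.91 ± 0.0338 and 0.691 ± 0.0426 times. The size of this ratio rests on the exonic lengths used, 2263 bases for Dnajb1 and 8629 bases for Dnaja1. Mean CPM of Dnajb1 and Dnaja1 were 99.19 and 287.4 in HSC and 78.36 and 299.6 in MPP of PBS mice. Hsph1 was lower in MPP of PBS mice (-0.19 ± 0.06, called), and in β-glucan mice it was at -0.10 ± 0.07. The Hsph1 call in PBS mice was lost without HSC PBS replicate 1, 3 or 4 or any MPP PBS replicate (adjusted p of 0.0532 to 0.12 in edgeR), with values from -0.16 to -0.20, and kept without HSC PBS replicate 2. It was also lost with no filter on low counts (0.172), with all 8 groups in 1 fit (0.214) and with the replicate block (0.0636).

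Both HSP90 genes were higher in MPP. Hsp90ab1 stood at 1966, 2011, 1879 and 2059 CPM in HSC and at 2593, 2437, 2494 and 2539 CPM in MPP of PBS mice (0.34 ± 0.07). In β-glucan mice the difference was 0.44 ± 0.06. Hsp90aa1 stood at 144.9, 120.3, 152.8 and 137.7 CPM in HSC and at 179.2, 174.2, 188.4 and 168.2 CPM in MPP of PBS mice (0.34 ± 0.08), and in β-glucan mice its difference was 0.46 ± 0.07. All 4 comparisons were called. In each the libraries did not overlap, but the share of all genes without overlap was not counted. The ratio of Hsp90ab1 to Hsp90aa1 per kilobase was 18.9 ± 2.49 in HSC and 18.6 ± 1.03 in MPP of PBS mice (SD, n = 4 each). With pseudogene counts added it was 4.77 ± 0.622 and 4.84 ± 0.227, so the size of the ratio depends on those copies, while HSC and MPP differed by less than the spread either way.

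The mitochondrial pair was higher in MPP too. Hspd1 stood at 378.7, 385.3, 362.9 and 390.2 CPM in HSC and at 477.1, 459.9, 495.4 and 489.2 CPM in MPP of PBS mice (0.33 ± 0.06), and its difference in β-glucan mice was 0.48 ± 0.06. Hspe1 stood at 93.87, 76.17, 83.59 and 92.43 CPM in HSC and at 118.8, 119.2, 114.1 and 119.2 CPM in MPP of PBS mice (0.44 ± 0.07), with 0.51 ± 0.07 in β-glucan mice. All were called. The libraries were separate in each, again without a count of that share over all genes. The windows of the second Hspd1 start and of Hspe1 share the printed element, and their exons overlap by 112 bases on opposite strands. Across the 31 libraries, with each group's mean taken out, their correlation was 0.08, a description over libraries that share tables and depth.

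**Figure D5:**
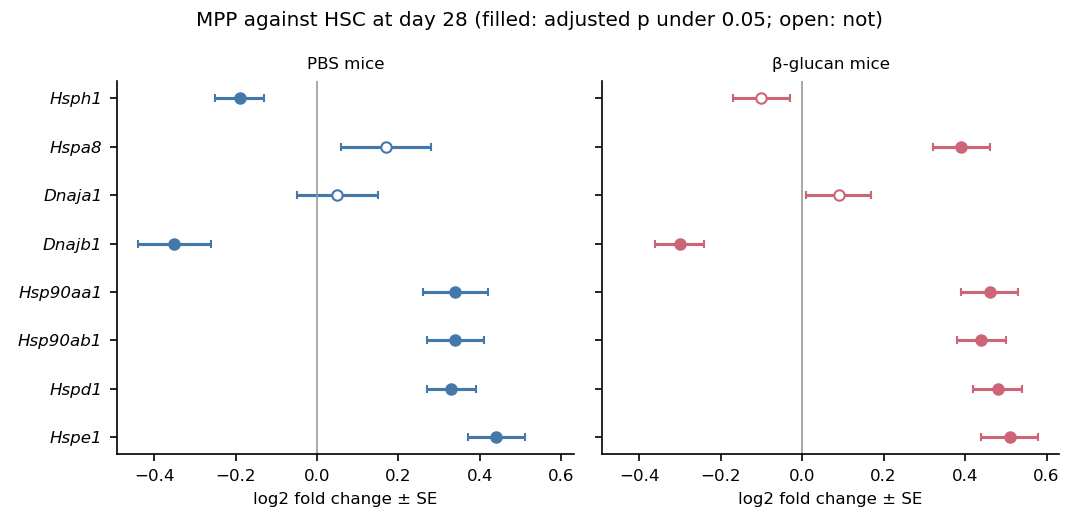
Log2 fold change ± standard error of the 8 tested members in MPP against HSC at day 28, in PBS mice (left) and β-glucan mice (right), with filled points for an adjusted p under 0.05. Hsp90aa1, Hsp90ab1, Hspd1 and Hspe1 lie between 0.33 and 0.51 and Dnajb1 at -0.35 and -0.30.

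Other chaperone genes also differed between the cell types, in both directions. Of 14 genes of the TRiC chaperonin, which folds actin and tubulin, and of prefoldin, which delivers them, 6 were called higher in MPP of PBS mice and 10 in β-glucan mice, and none lower, led in PBS mice by Cct2 (0.31 ± 0.06), Cct3 (0.32 ± 0.06) and Cct8 (0.29 ± 0.06). Of 14 mitochondrial folding and protease genes, 1 was called higher and 3 lower in PBS mice. In β-glucan mice 2 of them were higher and 3 lower. Trap1, the mitochondrial HSP90, was higher in both (0.35 ± 0.06 and 0.55 ± 0.06). Stip1, which couples HSP70 to HSP90, was higher in both (0.32 ± 0.06 and 0.30 ± 0.05), as was the HSP90 co-chaperone Ppid (0.22 ± 0.07 and 0.43 ± 0.06). Among the 9 exchange factors and adaptors that include Stip1, 1 was higher and 1 lower in PBS mice. In β-glucan mice 2 of the 9 were higher and 1 lower. Of 13 HSP90 co-chaperones, 1 was higher in PBS mice and 5 in β-glucan mice, and none lower. Of 10 other J-domain genes, 4 were lower and 1 higher in PBS mice, Dnajb2 (-0.79 ± 0.15), Dnajb4 (-0.52 ± 0.10) and Dnajc5 (-0.33 ± 0.07) at the smallest p, and 3 lower and 1 higher in β-glucan mice. Hspb8, a small heat shock protein, was lower in PBS mice (-1.78 ± 0.46), and Hsf1 was not called (0.11 ± 0.09 and 0.14 ± 0.08). Hspa9 fell in PBS mice (-0.37 ± 0.07) and was at 0.28 ± 0.16 in β-glucan mice. Of 12 tested immediate early genes 4 were lower in MPP of PBS mice, Ier2 (-1.12 ± 0.16), Junb (-1.07 ± 0.20), Dusp1 (-0.54 ± 0.15) and Btg2 (-0.41 ± 0.12), and 5 were lower and 1 higher in β-glucan mice. Of 8 erythroid markers 4 were lower in PBS mice and 6 in β-glucan mice, and of 8 neutrophil markers 1 and 5 were lower. Of 7 B cell markers 3 and 2 were higher, with a sum of 1475 to 2137 CPM in HSC and 3309 to 3904 CPM in MPP of PBS mice. In the endoplasmic reticulum 4 of 12 genes were higher and 2 lower in PBS mice, and 5 higher and none lower in β-glucan mice. The part of the immediate early genes and of these blood cells in the values of the heat shock genes was not tested.

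Within groups the members varied together only in part. Of the 28 pairs of the 8 tested members, 22 had a positive correlation across the 31 libraries after each group's mean was taken out, with a median of 0.22 and a range of -0.36 to 0.63. The highest were Hspa8 with Hsp90ab1 (0.63), Hsp90ab1 with Hspd1 (0.60) and Hspa8 with Dnaja1 (0.56), and the lowest was Hsp90aa1 with Dnajb1 (-0.36). Hsph1 was at 0.01 with Hspa8, the HSP70 protein it serves. Among 10752 other genes whose log2 CPM averaged 2 or more, the 10 most like the mean profile of the 10 members, by Pearson correlation over the 31 libraries within groups, were Prmt5 (0.77), Wdr43 (0.76), Apex1 (0.75), Eef1d (0.75), Larp7 (0.75), Ppid (0.71), Prmt7 (0.70), Cct5 (0.69), Cct3 (0.69) and Gm43097 (0.69). Of these, 3 belong to the chaperone lists (Ppid, Cct5 and Cct3). With the profile of the 8 tested members, 7 of the 10 genes were the same, with Eef1d (0.79) and Cct3 (0.78) at the top.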

How the data were processed

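RNA of sorted cells was amplified with a SMARTer Ultra protocol, per the labels' protocols. The deposited values are counts per gene, made by the authors with bcl2fastq 1.8.4 and featureCounts on mm10, per the submitters' processing notes. An aligner was not given in the sources used here. The protocol does not mark strand, so overlapping and antisense genes are uncertain. Identifiers without a symbol (563) held 0.0574 to 0.0908% of counts. Column names carry neither day nor 5-FU: tables were assigned by their group sizes and by the MPP columns.

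Counts were scaled by TMM, filtered with filterByExpr (minimum count 10) and fitted in R 4.3.3 with edgeR 4.0.16, using the libraries of the groups compared, with no covariates. Alternatives were DESeq2 1.42.0, limma 3.58.1 (voom with quality weights), DESeq2 size factors, no filter, CPM of at least 5, all 8 groups in 1 fit, haemoglobin genes left out, Hspa1a and Hspa1b summed, the replicate number as a block, and each library left out. The pair of HSC day 28 libraries and the pseudogene sums were added after seeing the data. The procedure was tested on simulated data.

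All 10 members are named. From each of 9 chaperone and stress lists, up to 3 genes of the smallest p are named per comparison, plus Hsf1 and genes chosen after their values were seen. The members and lists were chosen with earlier results of these data known. Of 147 list and marker genes, 146 matched a symbol (Hspa14 did not). In MPP against HSC of β-glucan mice, same-numbered libraries deviated together (r of 0.188 to 0.325), so the numbers may mark pairs. The values given for that comparison come from the fit without pairs. With the replicate number as a block, 6 members were called there, as in that fit. No duplicated library was found.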

Additional observations from a re-analysis of the deposited data

Results flagged for a closer look

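In 4 of 70 groups of 4 libraries tested, 1 library lay far from the other 3 for a member, where chance flags about 1 in 20 groups. Dnaja1 was 155.6 CPM in the fourth PBS library of HSC at day 7, with the others from 124.7 to 126.5 CPM. Hspa8 was 608.2 CPM in the fourth PBS library of HSC after 5-FU, with the others from 711.3 to 719.9 CPM. Hspe1 was 114.1 CPM in the third PBS library of MPP, with the others from 118.8 to 119.2 CPM. Hspa1a was 0.0772 CPM in the first PBS library of HSC at day 28, which is 3 counts, with the others from 0.02977 to 0.03429 CPM, which is 1 count each.

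The β-glucan difference of Hsph1 in HSC differed between day 28 and day 7 by 0.57 ± 0.16 in a test of the difference itself (edgeR's quasi-likelihood contrast of 4 groups). The adjusted p was 0.0451 in edgeR, and the call was lost when any of 12 of the 15 libraries was left out. In edgeR it was also lost with the replicate block (0.157). Without HSC day 28 PBS library 2 and β-glucan library 3 it was lost too (0.0587 in edgeR). The groups overlapped at day 7 and did not at day 28. The days are in different count tables, so day and table cannot be told apart.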

How the results depend on the processing

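Of 1545 log2 fold changes of single members under an alternative, 1495 kept their side of the threshold, 36 lost a call, 14 gained one and 0 called values changed sign. At day 7 the count of 1 member called became 0 with no filter and 0 with the replicate block, and ran from 0 to 1 with a library left out. In HSC at day 28 the count of 0 became 1 with DESeq2, 1 with limma voom, 1 with all 8 groups in 1 fit and 2 without PBS library 2 and β-glucan library 3 (Hsph1 and Dnaja1); it was 0 with any single library left out. In MPP the count of 1 became 2 with the replicate block (Dnaja1 added), and ran from 1 to 2 with a library left out, where Hspe1 (0.20) was added without β-glucan replicate 3. For MPP against HSC the count of 6 ran from 4 to 7 in PBS mice and from 6 to 6 in β-glucan mice with a library left out. In PBS mice it was 5 with no filter, all 8 groups or the replicate block (Hsph1 lost) and 7 with voom (Hspa8 added), and in β-glucan mice 5 with all 8 groups (Dnajb1 lost). For day 28 minus day 7 the count of 1 became 2 with CPM of at least 5, DESeq2, limma voom or all 8 groups (Hspa8 added), and 0 with the replicate block or without the pair of day 28 libraries, and ran from 0 to 1. After 5-FU, and in the other 2 differences, it was 0 under every alternative run. In all comparisons of 2 groups but MPP against HSC of β-glucan mice, at least 1 pair of same-numbered libraries correlated at under 0.1. The value was 0.0532 for 1 of 4 pairs in MPP against HSC of PBS mice and -0.0623 for 1 of 4 in HSC at day 28. Even so, MPP libraries 2, 3 and 4 of PBS mice correlated best with the HSC library of their own number. In HSC at day 28, β-glucan libraries 1, 2 and 3 did so with the PBS library of theirs. The numbers were not taken as pairs in any comparison with a pair under 0.1, although they may mark pairs there too. For MPP against HSC of β-glucan mice the main fit left the pairs out too, and the replicate block kept all 6 calls.

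Counts over all genes moved more. In HSC at day 28, 6 genes were called, and 182 with no filter, 589 with DESeq2, 598 with limma voom, 525 with all 8 groups, 14 with the replicate block, 669 without the pair of libraries and 1 to 51 with a library left out. At day 7, 1102 became 1711, 1744 and 1971 with DESeq2, voom and all 8 groups, 645 with the block and 500 to 1252 with a library left out. In MPP 733 became 1181 with no filter, 1302 with DESeq2, 228 with all 8 groups and 164 to 1010 with a library left out. After 5-FU 7 became 147, 42 and 94 with DESeq2, voom and all 8 groups, 110 with no filter, 16 with CPM of at least 5 or the block, and 2 to 61. For MPP against HSC of PBS mice, 3493 ran from 2004 to 5050 with a library left out. For MPP minus HSC, 1 became 2 with no filter, DESeq2 or all 8 groups, 34 without the pair, and 1 to 3. For day 28 minus day 7, 866 became 1432, 1611 and 1461 with DESeq2, voom and all 8 groups, and 445 to 1051. For 5-FU minus day 28, 18 became 59 with no filter, 151, 118 and 41 with DESeq2, voom and all 8 groups, 7 with the block, 274 without the pair, and 6 to 49. The cause of these changes was not tested. Counts of 0 to 21 limit any statement on Hspa1a and Hspa1b.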
